A study of Mus musculus with 12 samples.

Results

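The genes described here are 33 genes of homologous recombination, the Fanconi anaemia pathway and the DNA damage checkpoints, listed by their names and roles. They were chosen with earlier results of these data known. All 33 were among the 22609 genes counted in every library, and all 33 had enough reads to be tested in each of the 5 comparisons. The RNA came from mouse adherent neural stem (ANS) cells, a culture derived from E14.5 embryonic brain that can be turned towards inhibitory, GABA-producing neurons by changing the medium. T0 cells (3 libraries) were proliferating in growth medium with FGF2 and EGF, each at 20 ng/ml. T1 cells (3 libraries) had spent 2 days in medium D1, which held 10 ng/ml FGF and 2 ng/ml EGF. T2 cells (4 libraries) were taken 2 days, and T3 cells (2 libraries) 10 days, after the change to medium B, which held 10 ng/ml FGF-2 and 20 ng/ml BDNF. The study's methods describe the timing of T3 and the number of T2 cultures differently from the labels, which were followed here. The labels name no DNA-damaging agent or strain for any group, and the cultures are a model of the lineage and not tissue. The FPKM columns of all libraries have names that begin with wt, and the study's methods call the brain of origin normal.

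Homologous recombination repairs broken DNA by copying the intact sister chromatid, and is therefore tied to the S and G2 phases of the cell cycle. The Fanconi pathway removes crosslinks between the strands at stalled replication forks: a core complex of FANC proteins attaches ubiquitin to the FANCD2-FANCI pair, and BRCA1, BRCA2 and PALB2 then help to complete the repair by recombination. The kinases ATM and ATR sense breaks and single-stranded DNA and pass the signal to CHEK2 and CHEK1, which hold the cycle. Many of these genes are controlled by E2F factors and are transcribed as cells enter S phase, and in the developing brain dividing progenitors depend on them.

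Sequence letters that E2F factors are known to bind were looked for in the promoters, because the genes moved together. The RefSeq promoter windows of GRCm38.p6 (250 bases before to 50 bases after a transcription start) matched 25 of the 33 genes, with 28 windows. The motifs searched were TTTGGCGC, TTTGCCGC, TTTCGCGC and TTTCCCGC, on both strands, and 7 of the 25 genes (28%) held at least 1 of them, as did 3.29% of 17492 protein-coding genes and 2.6% of all 27025 genes in the same table. The 8 sites are shown with 8 bases on either side, read along the strand of the gene, with the motif in capitals, since they are the members whose promoter spells the motif exactly.
Chek2, chr5:110839823-110839846: gattagccGCGGGAAAccaagacg
Clspn, chr4:126556993-126557016: gcgtctggGCGCGAAAgctcgaac
Bard1, chr1:71103166-71103189: ccgctcagTTTCCCGCtcaggaag
Brca2, chr5:150522445-150522468: aggccacaGCGGGAAAcagacaca
Rad51c, site a, chr11:87404480-87404503: tccagcgcTTTCGCGCctcttgct
Rad51c, site b, chr11:87404944-87404967: ccgcgaggGCGGGAAAagcaaggg
Fancg, chr4:43010338-43010361: cttttcagTTTCCCGCggaaccgt
Msh6, chr17:87975057-87975080: ctcccgacTTTCCCGCcagcggcg

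The CCAAT letters that the NF-Y factor binds were in 14 of the 25 genes (56%) and in 42.3% of protein-coding genes. The CHR letters (TTTGAA or TTCGAA), known from promoters of mitotic genes, were in 2 of the 25 genes (8%) and in 20.2% of protein-coding genes. The E2F letters did not separate the genes by how far they fell: the median log2 fold change from T0 to T1 was -1.8 over the 7 genes with them (from -3.66 to -1.26) and -2.44 over the 18 genes without. A match is a description of the letters only, and a window without them says nothing of whether the factor binds elsewhere.

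Total counts on genes ranged from 8910724 to 16631614 per library. Levels below are CPM (counts scaled to the normalized library size), and an adjusted p is that of the edgeR quasi-likelihood test with Benjamini-Hochberg adjustment over all genes tested, with 0.05 as the threshold. Of 6 neuronal markers tested 5 were higher at T1: Dcx, a microtubule protein of young neurons, averaged 5.57 CPM at T0 and 218 CPM at T1, and Gad1, which makes GABA, averaged 2.68 and 36.1 CPM. Gad2, the other GABA-producing enzyme, was at 0 in 10 of the libraries. Over all genes 15.1% were higher at T1. The 8 progenitor markers summed to 6800 to 8170 CPM at T0 and 6670 to 8150 CPM at T1, with 1 lower and 0 higher. The 9 oligodendrocyte-lineage markers summed to 3540 to 3810 CPM at T0, 4470 to 4650 CPM at T1 and 5380 to 6290 CPM at T3. Most of these sums was Olig1 (2250 CPM at T0, 3800 at T3) and Olig2 (1110 and 1520 CPM). Of 7 tested, 1 was higher and 0 lower at T1. Of 8 tested at T3 against T0, 6 estimates were above 0 and 2 below, and 0 passed by edgeR. The 7 astrocyte markers summed to 2090 to 3200 CPM at T0, 2450 to 3020 CPM at T1 and 1850 to 2200 CPM at T3. Microglia were not visible, with 7 markers summing to at most 0.382 CPM in any library and C1qa and C1qb at 0 throughout, and 7 markers of blood vessels summed to at most 3.01 CPM. T0 replicate 3 stood apart from T0 replicates 1 and 2, with 0.494 CPM of the astrocyte gene Gfap where they had 147 and 150 CPM. The 33 genes were also higher there, by a median of 1.22 times the mean of the other T0 libraries (0.739 to 2.47 times), while the median over all genes was 1.01. Replicates are separate samples by their labels, and p-values measure the spread between these libraries.

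At T1, 31 of the 33 genes were lower than at T0 and 0 were higher, with 16.8% of all 12364 genes tested lower and 15.1% higher. Every T1 library lay below every T0 library in 32 of the 33 genes, against 28% of all genes. The median log2 fold change was -1.91 over the 33 genes and -0.0082 over all genes. At T2 the same number, 31, were lower and 0 higher, with 21.8% of all genes lower and 21.4% higher, the libraries lay wholly below those of T0 in 31 genes (27.2% of all genes), and the median was -2. The exceptions at both stages were Atr and Trp53bp1, and the lone gene with a positive estimate was Trp53bp1. Without T0 replicate 3 the counts of lower genes were again 31 at T1 and 31 at T2, with 3128 of 12557 and 3215 of 12686 genes lower. Together the 33 genes gave 2050 to 2670 CPM in the T0 libraries and 722 to 887 CPM in those of T1, against 690 to 968 CPM for T2 and 1010 to 1170 CPM for T3. In bulk RNA, fewer cells that express a gene and less RNA per cell cannot be told apart.

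**Figure D1:**
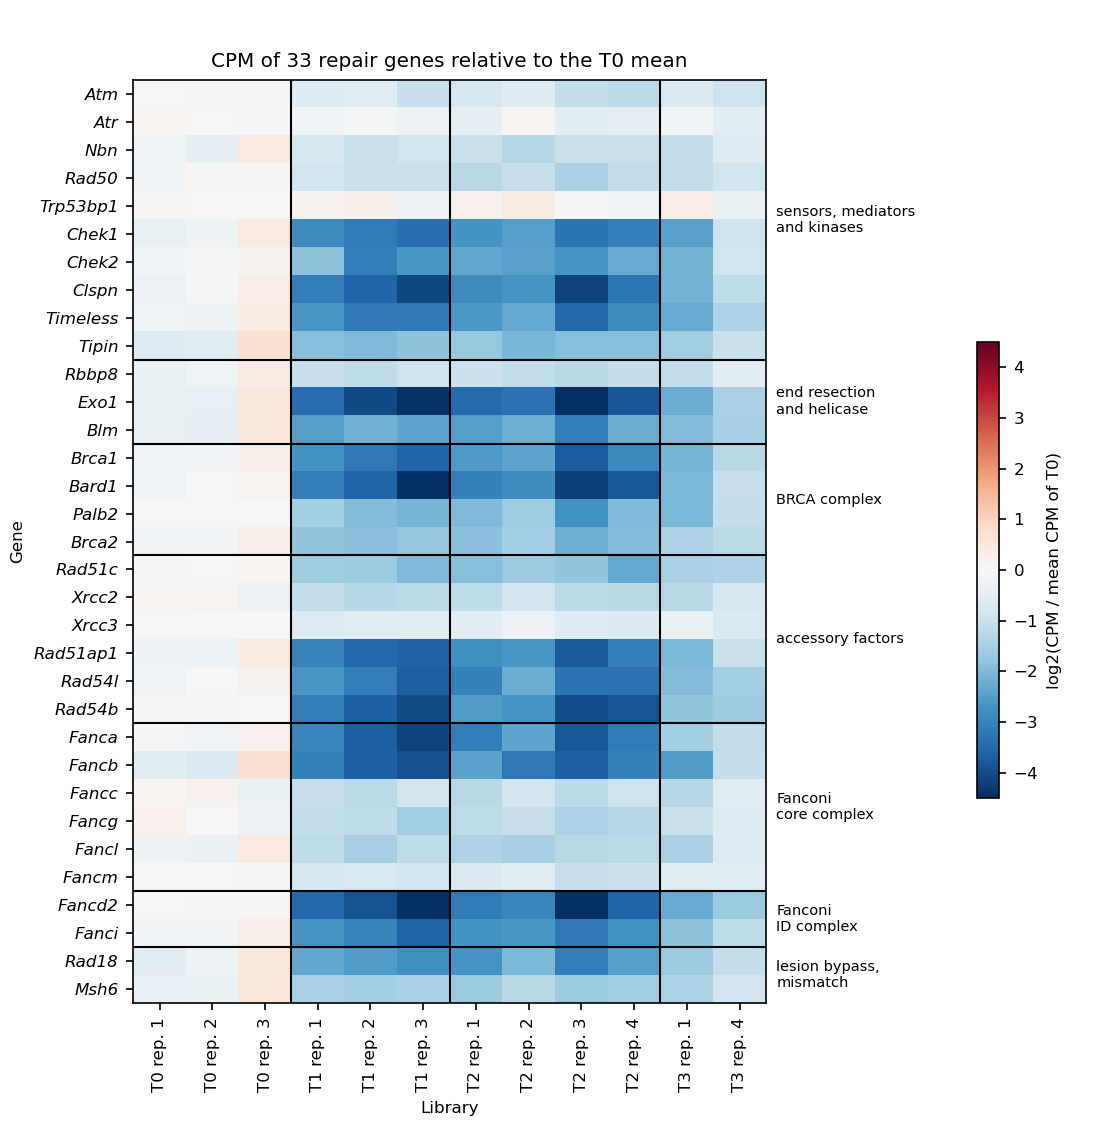
Level of each of the 33 genes (rows, grouped by role) in each of the 12 libraries (columns), as log2 of CPM over the mean CPM of T0, with blue below and red above it. The rows of the 12 genes at least 8-fold lower at T1, such as Fancd2, Exo1 and Bard1, are dark blue at T1 and T2 and paler at T3, and those of Atr and Trp53bp1 stay near white.

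The size of the fall differed widely among members. At T1, 12 genes were at least 8-fold lower (Chek1, Clspn, Exo1, Brca1, Bard1, Rad51ap1, Rad54l, Rad54b, Fanca, Fancb, Fancd2 and Fanci), 4 were 4-fold to 8-fold lower (Chek2, Timeless, Blm and Rad18), 10 were 2-fold to 4-fold lower and 7 differed by under 2-fold (Atm, Atr, Nbn, Rad50, Trp53bp1, Xrcc3 and Fancm). The deepest class kept 6.23% to 12.1% of its T0 level, and the shallowest 51.6% to 104%. Mki67, the standard mark of dividing cells, had a log2 fold change of -3.59 at T1, and 3 members exceeded it (Exo1, Bard1 and Fancd2).

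Among the 10 sensors, mediators and kinases in the list, the apical kinases and the break-binding proteins changed least. Atm (chr9:53247254-53344845, mm9, minus strand), the kinase that answers to double-strand breaks, had 183, 196 and 180 CPM in the T0 libraries and 124, 128 and 91.9 CPM at T1. It had 110, 124, 87.8 and 82.4 CPM at T2, and 119 and 97.7 CPM at T3. Each later library was below each T0 library, and the log2 fold change was -0.71 at T1 (SE 0.15, adjusted p = 0.013) and -0.87 at T2 (adjusted p = 0.0026). Atr (chr9:95758016-95852063, mm9, plus strand), the kinase that answers to single-stranded DNA at stalled forks, had 92.6, 84.8 and 82.5 CPM at T0, 76.4, 82.4 and 73.2 CPM at T1 and 65.5, 91.4, 63 and 64.4 CPM at T2. Its T1 libraries were just under those of T0 and its T2 libraries overlapped them, and the log2 fold changes of -0.17 (SE 0.11, adjusted p = 0.26) and -0.27 (SE 0.15, adjusted p = 0.17) did not pass. The 95% confidence interval of the T1 value ran from -0.42 to 0.09.

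Trp53bp1 (chr2:121019017-121097143, mm9, minus strand) encodes 53BP1, which shields broken ends from resection and so favours end joining over recombination. It had 196, 190 and 188 CPM at T0 and 214, 223 and 158 CPM at T1. It had 216, 240, 186 and 167 CPM at T2 and 233 and 150 CPM at T3. The groups overlapped throughout, with a log2 fold change of 0.05 at T1 (95% confidence interval -0.31 to 0.40, adjusted p = 0.82) and 0.10 at T2 (adjusted p = 0.59). Of its exonic bases 15% lie on the opposite strand to exons of Tubgcp4, and reads there cannot be assigned to either gene with a kit that does not keep the strand.

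Nbn and Rad50, members of the MRN complex that holds broken ends and recruits ATM, fell by about as much as Atm. Mre11a, the MRN subunit outside the list, averaged 54.9 CPM at T0 and 19.9 CPM at T1, and was named after its values were seen. Rad50 (chr11:53463021-53520821, mm9, minus strand) had 102, 114 and 116 CPM at T0 and 60.3, 56.1 and 54.8 CPM at T1, which did not overlap. The T1 estimate on the log2 scale was -0.96 (SE 0.11, adjusted p = 0.0014) and that at T2 was -1.19 (adjusted p = 0.00022). Nbn averaged 46.4 ± 15.1 CPM at T0 (SD, n = 3) and 24.9 ± 1.73 CPM at T1 (SD, n = 3), and its log2 fold change of -0.90 (adjusted p = 0.026) missed the threshold on leaving out T1 replicate 1, 2 or 3, with adjusted p from 0.08 to 0.11.

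The effector kinases fell much further than Atm and Atr, the kinases above them. Chek1 (chr9:36516067-36534650, mm9, minus strand), the kinase downstream of ATR, had 36.6, 39.7 and 63.3 CPM at T0 and 6.38, 5.16 and 4.27 CPM at T1. It had 7.26, 8.33, 4.82 and 5.47 CPM at T2, and 8.46 and 24.2 CPM at T3. The T1 and T2 libraries were far below T0, T3 replicate 4 was between them and T0, and the fall at T1 was 8.9-fold (log2 fold change -3.15, SE 0.28, adjusted p = 0.00061). Chek2, the kinase downstream of ATM, had 30.2, 31.9 and 37.5 CPM at T0 and 9.22, 3.81 and 5.43 CPM at T1, so that the log2 estimate was -2.44 (SE 0.32, adjusted p = 0.0021). The 95% confidence intervals for these kinases at T1 (-3.81 to -2.49 and -3.19 to -1.70) did not reach those of Atm (-1.06 to -0.36) or Atr.

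The proteins that ride with the replication fork and link it to CHEK1 fell with it. Clspn (claspin, the adaptor that lets ATR act on CHEK1) had 84.4, 95.7 and 123 CPM at T0 and 11.7, 8.37 and 5.91 CPM at T1, an 11.8-fold fall (log2 fold change -3.56, SE 0.28, adjusted p = 0.00051). Timeless, which with Tipin forms the fork protection complex, averaged 137 ± 32.1 CPM at T0 (SD, n = 3) and 17.2 ± 4.35 CPM at T1 (SD, n = 3), giving -3.00 on the log2 scale (SE 0.25, adjusted p = 0.00053). Tipin had 54.2, 57.1 and 136 CPM at T0 and 21.7, 21 and 23.5 CPM at T1. The high T0 value was that of T0 replicate 3, and the log2 fold change of -1.91 had a wide standard error (0.37, adjusted p = 0.0099).

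Resection, the trimming of broken ends to single strands, was divided in the same way. Exo1 (chr1:177810909-177841527, mm9, plus strand), the exonuclease that makes long single-stranded ends, had 46.1, 45.3 and 84.6 CPM at T0 and 5.52, 3.51 and 2.68 CPM at T1. It had 5.26, 5.92, 2.64 and 4.05 CPM at T2, and 12.4 and 21.3 CPM at T3. The order T0, T3, then T1 and T2 held without overlap, and the fall at T1 was 15.2-fold (log2 fold change -3.93, SE 0.38, adjusted p = 0.00077). Rbbp8, which encodes CtIP and starts resection with MRN, fell by 2.06-fold at T1 (adjusted p = 0.01). Blm, the helicase mutated in Bloom syndrome, fell by 5.05-fold, from 75.8 ± 28.8 to 15.1 ± 1.7 CPM (SD, n = 3 each, adjusted p = 0.0016).

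The BRCA genes fell by different amounts within their complexes. Brca1 (chr11:101350078-101413269, mm9, minus strand) had 124, 128 and 164 CPM at T0 and 21.8, 15.1 and 11.3 CPM at T1. It had 24, 26.6, 10.4 and 18.6 CPM at T2, and 33 and 58 CPM at T3. Its partner Bard1, with which it forms a ubiquitin ligase, had 37.2, 39.4 and 43.9 CPM at T0 and 4.65, 3.29 and 1.77 CPM at T1. The falls of the pair at T1 were 8.68-fold (log2 fold change -3.12, SE 0.26, adjusted p = 0.00054) and 12.6-fold (-3.66, SE 0.33, adjusted p = 0.00063). Brca2 (chr5:151325205-151372321, mm9, plus strand), a mediator of recombination, had 63.9, 65.3 and 85.2 CPM at T0 and 21, 19.5 and 21.2 CPM at T1, a 3.48-fold fall (-1.80, SE 0.15, adjusted p = 0.00054). Palb2, the bridge between BRCA1 and BRCA2, fell by 3.59-fold (adjusted p = 0.0011). The 95% confidence intervals of Brca1 (-3.74 to -2.50) and Brca2 (-2.16 to -1.44) at T1 did not meet.

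Among the accessory factors of recombination, Rad51c, Xrcc2 and Xrcc3 fell less than Rad51ap1, Rad54l and Rad54b. Rad51c had 33.5, 36.6 and 37.7 CPM at T0 and 11.8, 11.7 and 9.15 CPM at T1, a 3.31-fold fall (log2 fold change -1.73, SE 0.16, adjusted p = 0.00066). Xrcc2 fell by 2.31-fold (adjusted p = 0.0022) and Xrcc3 by 1.45-fold (26.6 ± 0.532 to 18.4 ± 0.533 CPM, SD, n = 3 each, adjusted p = 0.017), the smallest change in the list that passed the test. Rad51ap1, which helps DNA strands pair, had 55.8, 53.9 and 84.4 CPM at T0 and 8.02, 5.6 and 5.24 CPM at T1, a 10.4-fold fall (adjusted p = 0.00051). The motor proteins Rad54l and Rad54b, which move along DNA, fell by 8.56-fold and 11.7-fold (adjusted p = 0.00061 and 0.00048). For Rad54b the libraries were close within groups, at 25.7, 23.4 and 24.5 CPM at T0 and 2.93, 1.94 and 1.52 CPM at T1.

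The Fanconi core complex did not fall as a unit. Fanca had 27.8, 27.1 and 33.6 CPM at T0 and 3.88, 2.24 and 1.65 CPM at T1, an 11.6-fold fall (log2 fold change -3.53, SE 0.32, adjusted p = 0.00064). Fancb, which stabilises the ligase and lies on the X chromosome, had 11.5, 10.4 and 27 CPM at T0 and 1.98, 1.27 and 1.04 CPM at T1, likewise an 11.6-fold fall but with a larger error (SE 0.48, adjusted p = 0.0027). Fancl, the ubiquitin ligase subunit itself, fell by 2.38-fold (adjusted p = 0.0093), Fancg by 2.4-fold (adjusted p = 0.0034) and Fancc by 2.03-fold (adjusted p = 0.0095). Fancm, the translocase that anchors the complex on DNA, fell by 1.75-fold, from 54.5, 54.4 and 56.6 CPM to 31.8, 33.5 and 29.3 CPM (adjusted p = 0.0029). The 95% confidence interval of Fanca at T1 (-4.28 to -2.79) did not meet those of Fancc (-1.48 to -0.56), Fancg (-1.70 to -0.83), Fancl (-1.82 to -0.69) or Fancm (-1.08 to -0.54).

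The substrate pair of that ligase fell steeply. Fancd2 (chr6:113481676-113547011, mm9, plus strand) had 111, 110 and 117 CPM at T0 and 9.74, 7.47 and 3.84 CPM at T1. It had 12.6, 14.3, 5.1 and 9.28 CPM at T2, and 23.6 and 35.3 CPM at T3. The fall at T1 was the largest of the 33 genes at 16.3-fold (log2 fold change -4.02, SE 0.32, adjusted p = 0.00051). Fanci (chr7:86536815-86595151, mm9, plus strand) had 68.8, 71.4 and 92.8 CPM at T0 and 12.3, 9.56 and 6.4 CPM at T1, an 8.31-fold fall (log2 fold change -3.05, SE 0.26, adjusted p = 0.00058). Of the exonic bases of Fanci 14.8% are opposite exons of Polg, and the shares were 15.4% for Rad54l (Lrrc41), 13.7% for Fancl (Vrk2) and 7.68% for Fanca (Zfp276), so part of their reads cannot be assigned to a strand.

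Rad18, the ubiquitin ligase that opens lesion bypass at stalled forks, had 41.3, 49.6 and 82.6 CPM at T0 and 11.3, 10.2 and 8.6 CPM at T1, a 5.8-fold fall (log2 fold change -2.54, SE 0.29, adjusted p = 0.0014). Msh6, a mismatch sensor, had 105, 112 and 194 CPM at T0 and 49.5, 46.6 and 50.1 CPM at T1, a 2.82-fold fall (adjusted p = 0.0055). In both genes T0 replicate 3 was the highest library.

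**Figure D2:**
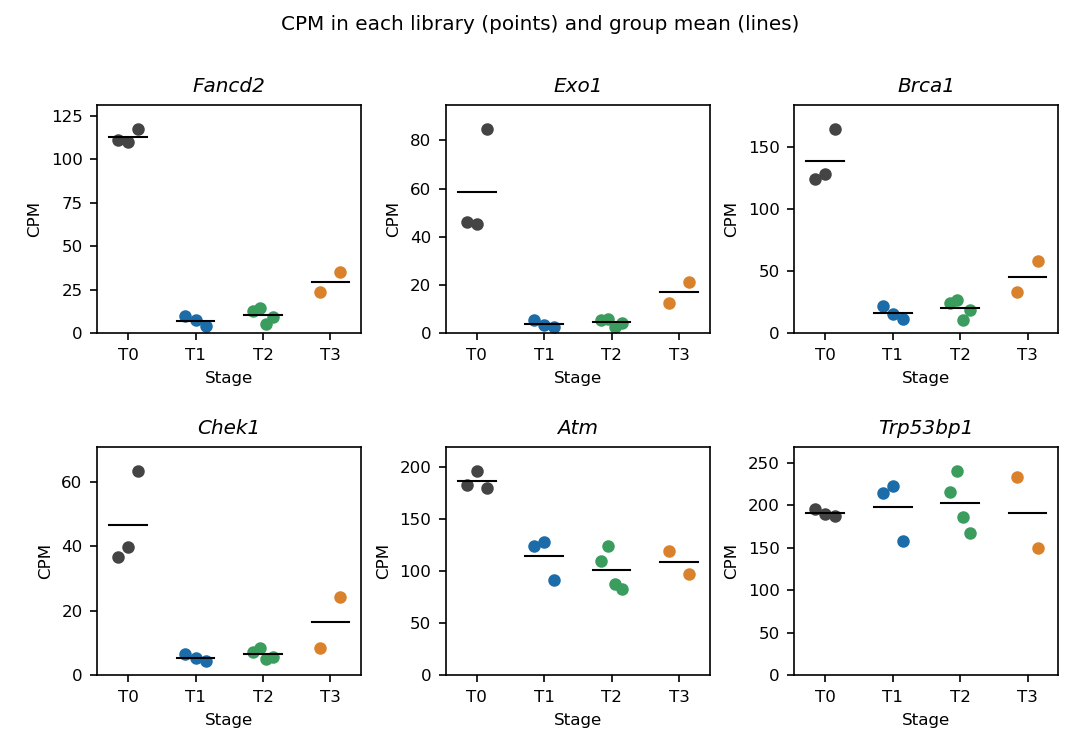
CPM of 6 genes (panels, linear axes from 0) in each library (points) at T0, T1, T2 and T3, with the group mean as a line. Fancd2, Exo1, Brca1 and Chek1 drop to near the axis at T1 and T2 and stand higher at T3, Atm falls by less than 2-fold, and the Trp53bp1 groups overlap.

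Between T1 and T2, 0 of the 33 genes were lower and 0 higher by edgeR, with 0.0565% of all genes lower and 0.573% higher. Only Rad50 was under an unadjusted p of 0.05 (log2 fold change -0.24, adjusted p = 0.41), and DESeq2 called 0. This fit did not pair the libraries. A fit with a replicate block, which pairs same-numbered libraries, also called 0 members. Over all genes it called 59 lower and 187 higher, where the unpaired fit called 7 and 71. The unpaired estimates ran from -0.24 to 0.58, with 21 of 33 above 0. The widest interval for the genes that had fallen deepest was that of Rad54b. In the unpaired fit its difference between T2 and T1 had a 95% confidence interval of -0.50 to 1.34, so that fit would not have detected changes of that size.

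At T3, 10 of the 33 genes were lower than at T0 and 0 higher, with 1.41% of all 12721 genes lower and 3.31% higher. The 10 were Rad50, Timeless, Brca1, Brca2, Rad51c, Rad54l, Rad54b, Fanca, Fancd2 and Fanci. By DESeq2 the number was 23 (7.41% of all genes). In 32 of the 33 genes both T3 libraries lay below every T0 library (25.8% of all genes), the exception being Trp53bp1, and the median log2 fold change was -1.32. Fancd2 had 26.2% of its T0 mean at T3 (log2 fold change -1.92, SE 0.22, adjusted p = 0.02), Rad54b 30.5% (-1.70, SE 0.21, adjusted p = 0.02) and Brca1 32.8% (-1.59, SE 0.29, adjusted p = 0.044). Rad51c, at 13.1 and 13.6 CPM in the T3 libraries, had 37.2% of its T0 mean (-1.41, SE 0.18, adjusted p = 0.021). The count rests on few libraries. It was 0 without T0 replicate 1 and 0 without T0 replicate 2, where 1 of 12591 and 2 of 12520 genes were lower. Without T0 replicate 3 it was 20, with 1067 of 12573 genes lower. Leaving out T3 replicate 1 or T3 replicate 4 left T3 without replicates, so only an effect size is given for those fits. The log2 fold change of Fancd2 was then -1.65 or -2.25.

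**Figure D3:**
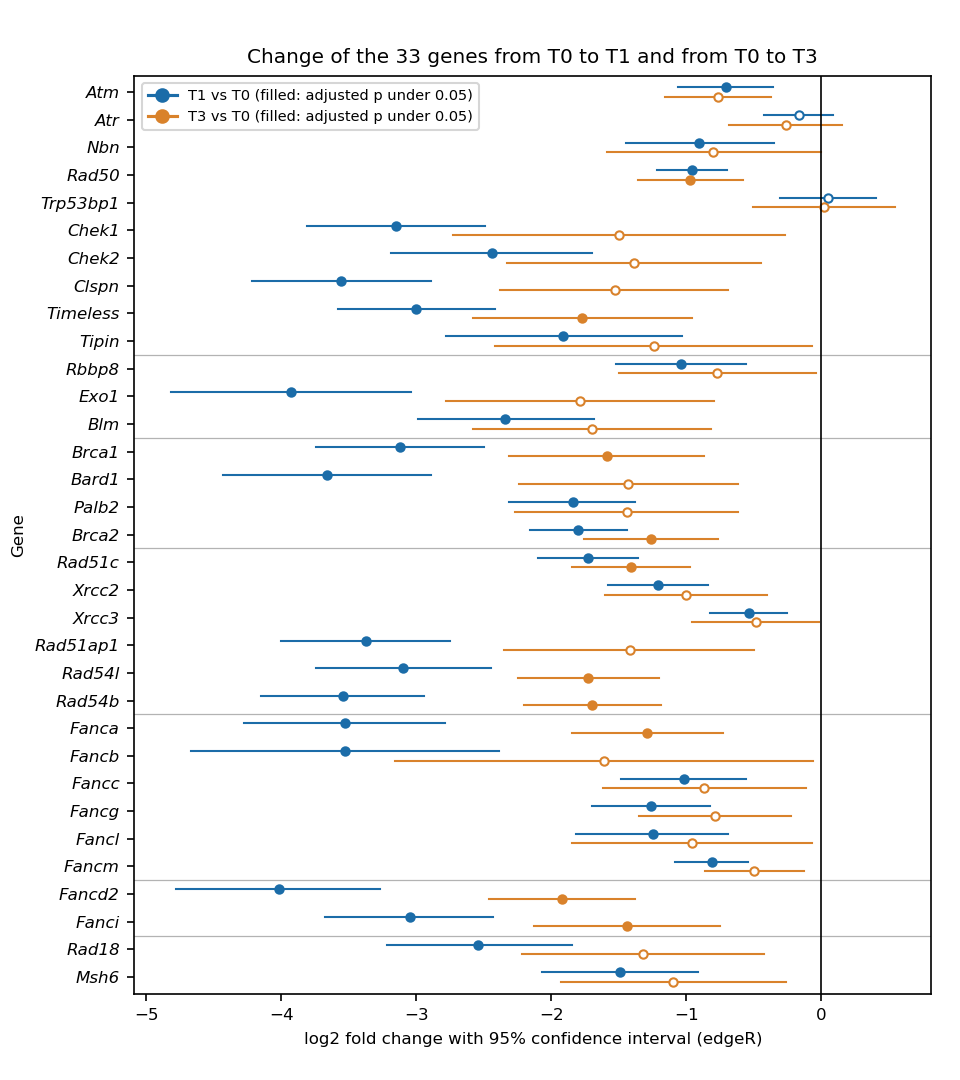
log2 fold change of each gene from T0 to T1 (blue) and from T0 to T3 (orange) with its 95% confidence interval, by the edgeR fit, and filled points for an adjusted p under 0.05. The blue estimates spread from -4.02 to 0.05 and the orange ones from -1.92 to 0.02, so the T3 values lie closer to 0 and to each other.

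From T2 to T3, 31 of the 33 estimates were above 0, 2 genes were higher and 0 lower, with 0.5% of all 12599 genes higher and 0.691% lower. Both T3 libraries lay above every T2 library in 19 of the 33 genes (13.6% of all genes). The 2 genes that passed were Exo1 (log2 fold change 1.91, SE 0.33, adjusted p = 0.045) and Fanci (1.33, SE 0.23, adjusted p = 0.046), with 11.9, 12.8, 8.37 and 11.7 CPM of Fanci at T2 and 21.4 and 35.2 CPM at T3. By DESeq2 12 were higher (3.49% of all genes), namely these and Chek1, Clspn, Brca1, Bard1, Rad51ap1, Rad54l, Rad54b, Fanca, Fancd2 and Rad18. Bard1 had 4.87, 5.65, 2.18 and 2.83 CPM at T2 and 9.8 and 19.8 CPM at T3, giving 1.93 on the log2 scale (SE 0.40, adjusted p = 0.058). The genes that were below 0, Trp53bp1 (-0.08) and Xrcc3 (-0.01), had adjusted p of 0.89 and 0.99. The edgeR count was 0 without any 1 T2 library, where 1 to 5 of all genes were higher. Over the alternative fits, among them those without 1 T3 library, the log2 fold change of Exo1 ran from 1.46 to 2.26. That of Fanci ran from 0.92 to 1.66.

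The T3 libraries differed from each other in these genes. T3 replicate 4 was above T3 replicate 1 in 28 of the 33, by a median of 1.48 times (0.646 to 2.86), while the median over all genes was 1. The difference was 2.86 times in Chek1, 2.72 times in Fancb and 2.34 times in Chek2, and 1.03 times in Rad51c. The same library had more Mki67 (312 against 197 CPM) and less Dcx (271 against 550 CPM). The part of these differences in the T3 values was not tested.

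Across members, those that had fallen most from T0 to T1 stood highest at T3 relative to T2. These comparisons share no library. Pearson's r between the log2 fold changes was -0.97 and Spearman's rho -0.98 over the 33 genes, and -0.52 and -0.51 over the 12242 genes tested in both, given as a description across genes, which are not independent. Without T0 replicate 3 and T3 replicate 4 the values were -0.85 and -0.85 for the 33 genes and -0.13 and -0.13 for 12415 genes, and 27 of the 33 were still above 0 from T2 to T3, with a median of 0.38. The 12 genes of the deepest class had medians of 8.77%, 12.3% and 33.5% of the T0 mean at the later stages in order. The 7 of the shallowest class had medians of 61.4%, 58.5% and 70.1%.

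**Figure D4:**
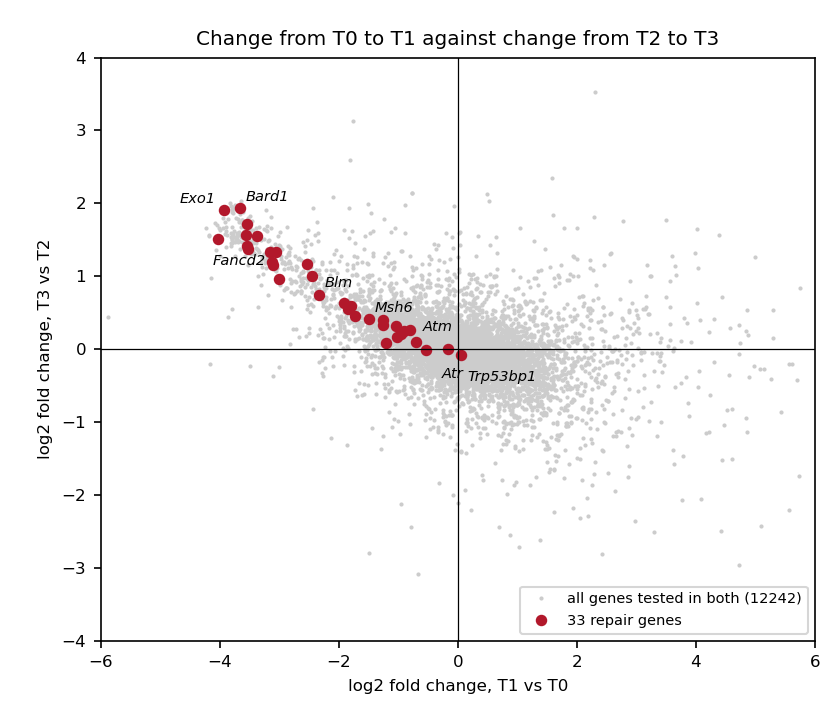
log2 fold change from T0 to T1 (horizontal) against that from T2 to T3 (vertical) for the 33 genes (red) and all 12242 genes tested in both comparisons (grey, 7 of them outside the axes). The red points run from Trp53bp1 and Atr near the origin to Exo1 and Bard1 at the upper left.

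Genes of cell division moved with the list, beside 16.8% of all genes lower and 15.1% higher at T1 (20.1% and 18.8% by DESeq2). The 15 proliferation markers were all lower at T1, with Aurkb, a mitotic kinase, falling furthest (log2 fold change -3.91, SE 0.42, adjusted p = 0.0011), and they summed to 2660 to 4660 CPM in T0 libraries and 242 to 435 CPM in T1 libraries, with 299 to 545 CPM for T2 and 825 to 1590 CPM for T3. Mki67 averaged 679, 56.6, 77.4 and 254 CPM from T0 to T3, with a log2 fold change of 1.72 from T2 to T3 (SE 0.34, adjusted p = 0.054). Rrm2, which makes the building blocks of DNA, was higher at T3 than at T2 (1.86, SE 0.35, adjusted p = 0.0497). E2f1, an activator of S phase genes, had 39.8 CPM at T0 and 9.3 at T1 (-2.10, SE 0.17, adjusted p = 0.00053), and it was at 13.8 CPM at T3 (-1.52 against T0, adjusted p = 0.041; 0.33 against T2, adjusted p = 0.51). Of 20 E2F and DREAM genes 13 were lower and 0 higher at T1 by edgeR (14 and 1 by DESeq2), and E2f2 fell furthest (-3.83, SE 0.28, adjusted p = 0.00049). The part of cell division in the members' levels was not tested.

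Other genes of the same pathways were counted by list, beside 16.8% of all genes lower and 15.1% higher at T1 (20.1% and 18.8% by DESeq2). Of 29 other homologous recombination genes tested 16 fell and 0 rose at T1 (18 and 0 by DESeq2), with a median log2 fold change of -0.73. Eme1, a subunit of a nuclease that cuts joint molecules, fell furthest, from 40.5 ± 8.31 to 2.88 ± 0.34 CPM (SD, n = 3 each, -3.82, adjusted p = 0.00037), and it was also higher at T3 than at T2 (1.54, SE 0.29, adjusted p = 0.049). Of 24 other checkpoint genes 16 were lower and 1 higher, with Cdc25c, a phosphatase that opens mitosis, furthest down (-3.80, SE 0.40, adjusted p = 0.001) and Rnf8, a ligase at breaks, as the higher one (0.36, adjusted p = 0.0498). Of 18 other Fanconi genes 6 were lower and 1 higher, with a median of -0.38. Ube2t, the enzyme that hands ubiquitin to FANCL, fell from 16.2 to 1.68 CPM (-3.26, SE 0.26, adjusted p = 0.00051), and Rev3l, a bypass polymerase subunit, rose from 497 to 1380 CPM (1.47, SE 0.23, adjusted p = 0.0045). Rnf8 and Rev3l were named after their values were seen.

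Genes of other repair routes fell in part, beside the same shares of all genes (16.8% lower and 15.1% higher at T1, 20.1% and 18.8% by DESeq2). Of 11 end joining genes 3 fell and 0 rose at T1 (4 and 0 by DESeq2), with a median of -0.41 and the Ku subunit Xrcc6 as the deepest (-0.95, SE 0.20, adjusted p = 0.012). Of 33 excision repair genes 13 were lower and 2 higher, with a median of -0.21. Neil3, a glycosylase, fell from 34 to 2.8 CPM (-3.61, SE 0.24, adjusted p = 0.0004). Among other mismatch repair genes Pms1 fell furthest (-1.11, SE 0.19, adjusted p = 0.007). No difference between these lists and the 33 genes was tested.

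Genes of the p53 response, which damage signals through ATM and CHEK2 can switch on, had no common direction at T1. Of 23 tested, 3 were lower and 3 higher at T1, beside 16.8% and 15.1% of all genes. At T3 against T0, 0 were lower and 3 higher by edgeR (3.31% of all genes higher), and 0 and 9 by DESeq2 (8.54% of all genes higher). Plk2, a stress-induced kinase, had 149, 124 and 472 CPM at T0 and 72 to 82.1 CPM at T1 (log2 fold change -1.67, SE 0.50, adjusted p = 0.041), the high value being T0 replicate 3. Trp53 averaged 170, 111, 116 and 131 CPM from T0 to T3, with an adjusted p of 0.064 at T1 and 0.039 at T2. Cdkn1a, the inhibitor of cyclin-dependent kinases that p53 induces, averaged 43.8 CPM at T0 and 23.7 at T1 (-0.89, adjusted p = 0.042), 44.1 at T2 (0.91 against T1, SE 0.14, adjusted p = 0.027) and 134 at T3. Its T3 libraries, at 71.3 and 196 CPM, were above all others, with a log2 fold change against T2 of 1.60 (SE 0.31, adjusted p = 0.053). Eda2r, a receptor induced by p53, was higher at T3 than at T2 (0.89, SE 0.16, adjusted p = 0.049).

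Levels between genes can be compared only per length, for which the authors' FPKM values, which allow for transcript length and depth, were used. At T0 the highest means were those of Trp53bp1 (75.1 ± 6.17 FPKM, SD, n = 3), Tipin (58 ± 37.4), Chek1 (40.1 ± 17.7), Rad51ap1 (39.1 ± 9.79) and Timeless (34.2 ± 7.15), and the lowest those of Brca2 (4.78 ± 1.17) and Fancb (4.33 ± 2.82). The spread of Tipin and Chek1 at T0 covers their neighbours in this order. The locus given with the FPKM of Trp53bp1 starts at chr2:120984008, outside its gene model (from 121019017), which limits that rank. Trp53bp1 and Tipin averaged 191 and 82.4 CPM at T0, and 198 and 22.1 CPM at T1, over 14164 and 1211 exonic bases. Counts per exonic base thus put Tipin above Trp53bp1 at T0 and at T1, the reverse of the FPKM order. At T1 the order was led by Trp53bp1 (66 ± 13.9 FPKM), Atm (17 ± 1.47) and Tipin (14.9 ± 1.17), while Chek1 was at 3.93 ± 0.676 FPKM and Fancd2 at 1.54 ± 0.627 FPKM. Chek1 was thus above Atr by FPKM at T0 (40.1 and 7.63 FPKM) and below it at T1 (3.93 and 6.65 FPKM), with no overlap of their libraries at either stage. At T0 they averaged 46.5 and 86.6 CPM over 4646 and 8499 exonic bases, which show no such gap. Their order at T0 therefore rests on the FPKM values. At T3, where the FPKM column of replicate 4 carries a further number that the labels do not explain, they had 11.1 ± 7.5 and 5.47 ± 1.51 FPKM (SD, n = 2 each).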

How the data were processed

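RNA was extracted with Trizol from 12 ANS cell cultures and polyA RNA was prepared with the TruSeq RNA Sample Prep kit v2 and sequenced on a HiScanSQ. The submitters' processing notes name CASAVA 1.8, TopHat2 2.0.6, Bowtie 0.12.7.0, HTSeq 0.6.0, DESeq2 1.0.0 and the mm9 build. The authors deposited raw read counts per gene and, in separate tables, FPKM values, whose tool is not given in the sources used here. Rows that name no gene were left out (reads in no gene made up 13.3% to 24.1% of uniquely mapped reads). Counts were tested with edgeR 4.0.16 (R 4.3.3, quasi-likelihood test, TMM, filterByExpr, Benjamini-Hochberg, threshold 0.05), with the 2 groups of a comparison per fit, after the code was tested on simulated data. FPKM values were used only for levels between genes, with no test. DESeq2 1.42.0, other scalings and filters, a fit of all libraries, left-out libraries and a replicate block were the alternatives. Same-numbered libraries of T1 and T2 deviated together (r of 0.25, 0.38 and 0.2), so these numbers were taken to pair them. The main fit of T2 against T1 held no replicate term, and the pairing entered only through the replicate block. The numbers were not taken as pairs from T0 to T1 (r of -0.011, 0.14 and 0.091), from T0 to T2 (-0.086, 0.019 and -0.16), from T2 to T3 (-0.052 and 0.27) or from T0 to T3, where 1 shared number (0.46) is too few to judge. The members and lists were chosen with earlier results of these data known. Every member is described, and of each pathway list the gene with the largest change past the threshold in T1 vs T0 and in T3 vs T2 is named, with Mki67, Trp53, Cdkn1a and E2f1. Some items are not reported here. Depths limit precision least for high genes and most for those at a few CPM. Gene positions are those of mm9 (NCBIM37) and promoter sequences those of RefSeq GRCm38.p6, and no coordinate was converted.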

Additional observations from a re-analysis of the deposited data

Results flagged for a closer look

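Among the T2 libraries, replicate 2 stood apart in 2 of the 33 genes, and chance alone sets about 1 in 20 such groups apart. Atr was at 91.4 CPM there and at 63 to 65.5 CPM in the other T2 libraries, a gap of 0.912 of the range of the group. Nbn was at 19 CPM there and at 22.9 to 23.4 CPM in the others, a gap of 0.888 of the range. Without that library the log2 fold change of Atr from T0 to T2 was -0.41, with an edgeR adjusted p of 0.018. Of 13 alternative fits this was the only 1 in which Atr passed. Since the library was singled out by its high Atr value, the lower p without it is no separate evidence of a fall.

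Exo1 and Fanci were the members that differed between T2 and T3 by edgeR's quasi-likelihood test, with log2 fold changes of 1.91 (adjusted p = 0.045) and 1.33 (adjusted p = 0.046). Both T3 libraries were above all 4 T2 libraries in each gene. With a replicate block the adjusted p values were 0.15 and 0.17.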

How the results depend on the processing

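The falls at T1 and T2 were stable in number: under the alternatives run, the counts of lower members stayed within 1.5 times of 31. They were 25 to 31 at T1, where 940 to 3128 of all genes were lower. At T2 they were 30 to 32, with 1535 to 3215 of all genes lower. No member that passed the threshold in either fit changed sign. Estimates near 0 did change sign between fits without passing, such as Trp53bp1 from T0 to T1 (-0.04 to 0.19). Of 396 results of single genes from T0 to T1, 10 lost the threshold (Xrcc3, Nbn, Tipin, Rbbp8, Fancc and Fancl, when a library was left out). The number lower at T3 than at T0 was 10, with 179 of all genes lower. It was 23 by DESeq2 (942 of all genes) and 17 with no filter on low counts (454 of all genes). In one fit of all 12 libraries it was 31 (1865 of all genes). When 1 T0 library was left out it was 0 to 20 (1 to 1067 of all genes). The number higher at T3 than at T2 (2) was 12 by DESeq2, 13 with no filter, 0 in one fit of all 12 libraries, 0 with the replicate block, and 0 to 16 when 1 library was left out. The upper end of that range came from the fit without T3 replicate 1, which left T3 without replicates. Over all genes the number higher at T3 than at T2 moved as well. It was 63 in the main fit, 440 by DESeq2 and 423 with no filter. It was 18 in one fit of all 12 libraries, 5 with the replicate block and 1 to 5 when 1 T2 library was left out. With the replicate block 31 members were lower at T1 (1724 of all genes) and 30 at T2 (1535 of all genes). Xrcc3 had an edgeR adjusted p of 0.11 at T2 in that fit, and the block changed no call of a member between T1 and T2. No paired analysis was possible for T3 against T0, which share 1 replicate number. The causes of these shifts were not tested. With 2 T3 libraries, the T3 comparisons are the least precise.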

Other observations

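Reads assigned to no gene made up 13.3% of uniquely mapped reads in T0 replicate 3 and 19.6% and 19.9% in the other T0 libraries, and reads that mapped to more than 1 place made up 39% against 34% and 34.6%.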
